A study of Mus musculus with 16 samples.

Results

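Very broad open regions are stretches of accessible chromatin of 2000 bp or more, and there were 302 of them among 335268 open regions (0.0901%) in mouse organ of Corti progenitors. They were found by merging the intervals of 6 deposited ATAC-seq peak lists on chromosomes 1 to 19 and X wherever intervals shared 1 bp or more, and keeping the merged regions of at least 2000 bp. Width and the bases each ATAC library covered chose the regions, so these values are given as a description, without a test. Together the 302 regions spanned 666313 bases of the GRCm38 (mm10) mouse genome.

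The libraries came from cells sorted from the embryonic cochlea at 2 stages. At E12.0, an embryonic day by the labels, the cells were GFP-positive progenitors carrying a Sox2-GFP reporter, and at E13.5 they carried p27-GFP, which reports Cdkn1b. No other genotype or treatment was labelled, and stage and reporter change together, so the effects of age and of the sort cannot be told apart. There were 3 ATAC-seq libraries a stage, 2 RNA-seq and 2 H3K27ac CUT&RUN libraries a stage, and 2 Tead CUT&RUN libraries at E12.0 only. Whether replicates of a group are separate litters or cultures is not labelled. The p-values therefore cover only the spread among the libraries at hand, which may be technical.

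ATAC-seq cuts DNA where nucleosomes leave it free, and most single open sites are short. Many mammalian promoters lie in CpG islands, stretches of GC-rich DNA that keep their CG dinucleotides and tend to remain accessible in many cell types. H3K27ac is an acetyl mark on nucleosomes beside active promoters and enhancers, and Tead proteins bind DNA and recruit the coactivator Yap, which promotes growth of progenitors in the developing cochlea.

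Most of the very broad regions lay at promoters. Of the 302 regions, 254 (84.1%) held a start or possible start of a protein-coding gene, against 4.19% of all open regions. The share rose with width, from 0.455% of regions under 500 bp through 9.0% (500 to under 1000 bp), 48.5% (1000 to under 1500 bp) and 74.4% (1500 to under 2000 bp). A further 36 regions lay inside a coding gene without holding a start, and 12 lay in neither. The 254 regions held 290 start genes. A start in RefSeq's promoter table lay in 203 of the regions, for 232 of the genes. The other genes were tied by either end of their span, as the gene table gives no strand, so some may be gene ends. Promoter-table starts on both strands were found in 28 regions.

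Some promoter sequences of these regions are given as examples, and they were not chosen to represent the rest. The 250 bases before the start of 6 genes are printed 5′ to 3′ on the gene's own strand, from RefSeq's GRCm38.p6 table, with CG dinucleotides in capitals. Sdc1 and Pfn1 are shown for their large RNA changes, Dnmt3a for its width and many CG dinucleotides, Gsk3b for carrying every mark measured, and Fgfr3 and Gad2 for carrying none.
Sdc1, chr12:8771146-8771395, plus strand: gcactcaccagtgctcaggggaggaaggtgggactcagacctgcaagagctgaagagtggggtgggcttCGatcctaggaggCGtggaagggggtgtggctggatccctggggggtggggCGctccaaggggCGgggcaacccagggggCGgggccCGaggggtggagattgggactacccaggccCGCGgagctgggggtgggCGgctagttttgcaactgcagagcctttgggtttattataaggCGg
Pfn1, chr11:70654651-70654900, minus strand: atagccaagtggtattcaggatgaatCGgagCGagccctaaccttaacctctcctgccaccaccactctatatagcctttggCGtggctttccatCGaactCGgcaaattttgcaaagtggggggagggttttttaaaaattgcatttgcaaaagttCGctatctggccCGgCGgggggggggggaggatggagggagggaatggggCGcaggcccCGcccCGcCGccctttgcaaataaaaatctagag
Dnmt3a, chr12:3806730-3806979, plus strand: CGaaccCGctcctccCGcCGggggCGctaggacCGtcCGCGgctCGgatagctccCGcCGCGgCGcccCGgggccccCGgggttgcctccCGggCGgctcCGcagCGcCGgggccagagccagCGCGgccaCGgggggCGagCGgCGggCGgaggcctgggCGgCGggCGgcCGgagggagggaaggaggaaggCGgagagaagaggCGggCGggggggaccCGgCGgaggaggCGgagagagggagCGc
Gsk3b, chr16:38088751-38089000, plus strand: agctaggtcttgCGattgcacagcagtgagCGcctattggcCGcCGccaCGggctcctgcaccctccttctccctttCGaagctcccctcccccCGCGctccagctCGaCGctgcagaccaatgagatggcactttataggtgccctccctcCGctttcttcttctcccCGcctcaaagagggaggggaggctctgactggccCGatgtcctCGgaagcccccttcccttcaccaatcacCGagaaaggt
Fgfr3, chr5:33721474-33721723, plus strand: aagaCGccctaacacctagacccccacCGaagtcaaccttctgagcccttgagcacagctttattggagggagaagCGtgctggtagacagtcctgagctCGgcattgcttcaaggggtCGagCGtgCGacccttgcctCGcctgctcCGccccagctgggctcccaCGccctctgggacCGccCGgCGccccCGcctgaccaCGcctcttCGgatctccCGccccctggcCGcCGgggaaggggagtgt
Gad2, chr2:22622077-22622326, plus strand: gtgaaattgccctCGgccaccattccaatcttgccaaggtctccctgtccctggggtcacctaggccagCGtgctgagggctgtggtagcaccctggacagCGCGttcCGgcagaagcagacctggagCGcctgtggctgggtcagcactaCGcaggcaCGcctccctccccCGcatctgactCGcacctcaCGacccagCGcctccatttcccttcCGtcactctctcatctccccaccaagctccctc

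Dnmt3a had 38 CG dinucleotides in its 250 bases and a GC content of 82.4%. Sdc1 had 10, Pfn1 12, Gad2 13, Gsk3b 15 and Fgfr3 19, with GC contents between 54.4% (Pfn1) and 66.8% (Fgfr3). All of the regions that hold these starts reached well beyond the printed window on at least one side.

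Over the 288 promoter windows of 300 bases (250 before and 50 after a start) that fell on 232 of the start genes, the median GC content was 69.0%, against 56.7% over 21045 coding promoters. The median window held 29 CG dinucleotides (all promoters, 13). The ratio of CG dinucleotides found to those expected from base content had a median of 0.867 and was above 0.6 in 83.7% of windows, against 0.574 and 48.1%. The promoters in regions of 1000 to under 1500 bp were close by in that ratio, with a median of 0.803 and 80.5% above 0.6, and lower in GC content (63.3%). Base content therefore differed less between the very broad regions and ordinary open promoters than between open promoters and promoters with no open region, whose median ratio was 0.184.

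Short motifs were searched on both strands of the same windows. The GC box GGGCGG was present in 78.1% of the windows in very broad regions and in 46.7% of all promoters. The CCAAT letters read by NF-Y were present in 24.7% against 38.5%, TATAAA in 6.60% against 12.7%, and the ETS letters CCGGAAGT in 2.78% against 5.20%. The Tead core GGAATG was present in 10.8% against 13.48%, and the AP-1 letters TGANTCA in 3.13% against 7.04%. Promoters in regions of 1000 to under 1500 bp had 71.9% (GC box), 37.2% (CCAAT), 5.28% (TATAAA), 9.08% (ETS), 10.8% (Tead core) and 3.71% (AP-1). For the GC box, TATAAA, Tead core and AP-1, the very broad regions were therefore nearer to these open promoters than to all promoters. CCAAT and ETS were lower than in both. Promoters in regions of 1500 to under 2000 bp lay between the narrower open promoters and the very broad regions (CCAAT 32.2%, ETS 4.30%). The ETS letters were in only 8 of the 288 windows in very broad regions. A match is letters in a window, not a bound site, and how far these shares follow base content was not tested.

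The regions varied little in width. The median was 2135 bp (quartiles 2061 and 2264), only 27 reached 2500 bp and 4 reached 3000 bp, and the median open region of any size was 222 bp. A single interval of 2000 bp or more in at least 1 library accounted for 136 regions, and 166 passed the threshold only by joining intervals across libraries. Just inside the threshold stood the promoters of Fbxl14, a ubiquitin ligase subunit (2000 bp), Usp7, a deubiquitinase (2001 bp), and Bicral with Tbcc (2001 bp), and a region inside Pitpnc1 (2001 bp). Just outside were regions at Rap2b (1999 bp), Shb (1998 bp) and Neo1 (1997 bp), and an intergenic one on chromosome 2 (1998 bp).

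The widest region was not at a coding gene. It covered chr17:39843087-39846730 (3644 bp) over the ribosomal RNA copy Rn18s-rs5, and the E12.0 libraries covered 3616, 3637 and 3635 of its bases while every E13.5 library covered 0. The authors' highest fold enrichment there was 2.36 to 2.46 at E12.0. The peak numbers in the E12.0 lists had no gaps, whereas 186, 212 and 217 numbers were missing from the E13.5 lists, and 11 unplaced sequences appeared in each E12.0 list and 0 in the E13.5 lists. The sources used here do not say how the lists were filtered, so this 0 is not read as closed chromatin. Ribosomal RNA genes are also multicopy, and a read cannot be assigned to one copy.

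Next in width came chr18:35918261-35921599 (3339 bp) at the non-coding genes C330008A17Rik and Gm36416, and chr9:124422827-124426000 (3174 bp) at the predicted gene LOC108167694. LOC108167694 was covered over 2783 to 2948 bases at E12.0 compared with 2953 to 3090 at E13.5, so it was nearly as broad at both stages.

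The widest region at an established coding gene was chr16:4557961-4560964 (3004 bp) at Tfap4, which encodes a helix-loop-helix transcription factor. The E12.0 libraries covered 1303, 2374 and 1215 of its bases and the E13.5 libraries 2722, 2595 and 2629. Rreb1, a zinc finger transcription factor, followed with 2955 bp, covered over 1405, 1946 and 1646 bases at E12.0 compared with 2713, 2735 and 2795 at E13.5. The stages did not overlap at either gene, and the E12.0 libraries differed more among themselves than the E13.5 libraries did.

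The other 7 of the 12 widest were a region inside Cpeb2 over the non-coding Gm7854 (2919 bp), Gm35364 (2887 bp), Rims2, a scaffold of the presynaptic active zone (2859 bp), Pfn1, an actin-binding profilin (2845 bp), Nsd1, a histone H3 lysine methyltransferase (2822 bp, inside its span), Dnmt3a, a de novo DNA methyltransferase (2776 bp), and Kmt2c, a histone methyltransferase of the MLL family (2745 bp). All 7 were covered over more bases in each E13.5 library than in any E12.0 library. Dnmt3a, for example, was covered over 1400, 1473 and 1673 bases at E12.0 compared with 2333, 2567 and 2609 at E13.5.

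**Figure D1:**
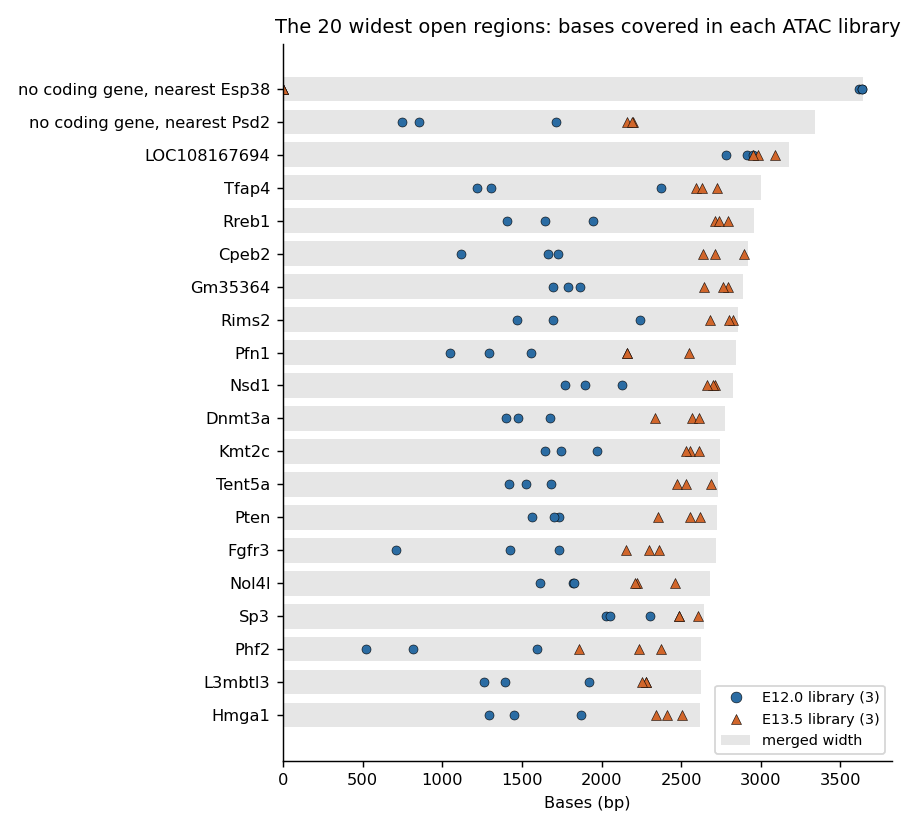
Bases covered by each of 6 ATAC libraries (points, in bp) within the 20 widest merged regions (grey bars, merged width in bp), named by the gene they hold or the nearest coding gene. The E13.5 libraries (triangles) lie to the right of the E12.0 libraries (circles) in all but the widest region, where they are at 0, against 3616 to 3637 bp at E12.0.

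Nearly all of the regions were open at both stages, but few were this broad at E12.0. The E12.0 libraries merged alone gave 31 regions of 2000 bp or more and the E13.5 libraries alone 225. A wide region merged from these lists is touched more easily by each of them. All 6 ATAC libraries had an interval in 10.1% of all open regions. The share was 79.9% at 1000 to under 1500 bp and 94.7% at 1500 to under 2000 bp. Of the 302 very broad regions, 299 (99.0%) had an interval in all 6. The 3 exceptions were the ribosomal RNA region, chr11:86851012-86853037 over the non-coding Gm33742 and Gm51288, where E12.0 replicate 2 had none, and chr9:121889055-121891084 near Ackr2, where E12.0 replicate 3 had none.

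The stages differed in how much of each region was covered. The E12.0 libraries covered 58.1%, 67.0% and 55.6% of the bases of the 302 regions, and the E13.5 libraries 89.1%, 87.7% and 87.4%. The median region was covered over 1354 bases at E12.0 compared with 1939 at E13.5, as means of 3 libraries. Every E13.5 library covered more than every E12.0 library in 260 regions (19.5% of all open regions did so), the stages overlapped in 41, and E12.0 was higher in 1 (0.0856% of all open regions), the ribosomal RNA region.

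The rule used these values, and the E13.5 lists were longer throughout. They held 151910 to 161619 intervals, against 99187 to 119896 at E12.0. Over open regions of every width they covered 52.0% to 56.4% of bases, against 23.6% to 33.6%. Gsk3b was among the regions that overlapped, with 1293, 1872 and 1611 bases at E12.0 compared with 1854, 1819 and 2145 at E13.5. How much of the difference goes with list length was not tested.

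Measured from the most upstream start inside each region, the regions reached further downstream than upstream. Where a region holds several starts, this choice lengthens the downstream side, and how far was not tested. In the 175 regions with promoter-table starts on 1 strand, a median of 746 bp lay upstream of the start and 1433 bp from the start downstream, and 135 were longer downstream. At E13.5, ATAC intervals covered 62.7% to 64.6% of the 1000 bp before the start and 86.8% to 88.2% of the 1000 bp after it. At E12.0 the values were 43.1% to 53.2% and 54.0% to 63.5%.

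H3K27ac, which the rule did not use, touched most of the regions but covered little of them. At E12.0 it touched 71.5% of the regions in replicate 1 and 36.8% in replicate 2, and at E13.5 it touched 79.1% and 22.2%. It covered 25.3% and 6.50% of their bases at E12.0 compared with 32.0% and 3.46% at E13.5. Replicates of a stage therefore differed by more than the stages did, and 2 libraries against 2 cannot reach 0.05 in an exact permutation test, so no stage difference was drawn from them. Per the labels, E12.0 replicate 1 was made with another library kit than the other 3.

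Both replicates touched 107 regions at E12.0 (35.4%, against 4.67% of all open regions) and 65 at E13.5 (21.5%, against 3.0% of all open regions). All 4 libraries touched 47 (15.6%, against 1.45%), and none touched 52 (17.2%, against 75.6%). A wide region is touched more easily, and regions of 1000 to under 1500 bp gave similar shares, with 36.1% and 22.0% touched by both replicates, 15.2% by all 4 libraries and 18.5% by none. Measured in bases, H3K27ac covered the very broad regions less than those of 1000 to under 1500 bp in all 4 libraries, whose shares there were 38.2%, 15.2%, 44.6% and 7.08%, in the same order.

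**Figure D2:**
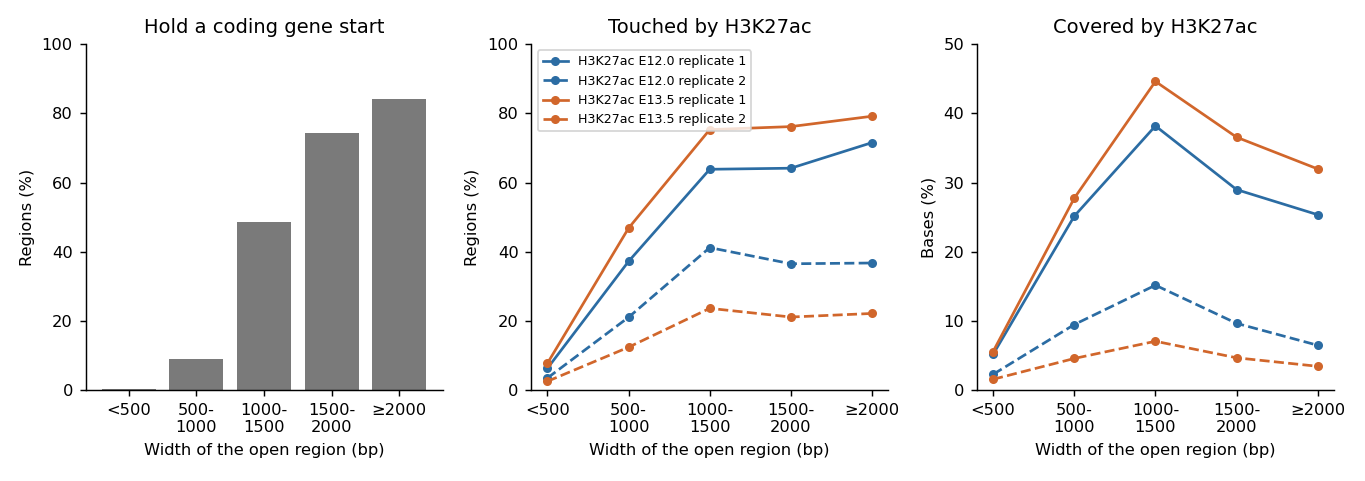
Share of open regions (%) by width in bp that hold a coding gene start (left) or are touched by H3K27ac (middle), and share of their bases covered by H3K27ac (right), with 1 line a library. The share with a coding start or possible start rises to 84.1%. The bases covered by H3K27ac peak at 1000 to under 1500 bp in all 4 libraries and are lower at 2000 bp or more.

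Over the 302 regions together, H3K27ac covered less of the middle than of the outer parts. Each region was cut into 3 parts of equal length. In E12.0 replicate 1 H3K27ac covered 19.0% of the bases of the middle part and 28.5% of those of the outer parts, and in replicate 2 5.12% and 7.18%. At E13.5 the values were 27.4% and 34.2% in replicate 1, and 2.66% and 3.86% in replicate 2. All 4 libraries went the same way over the 302 regions. In the 48 regions without a coding start the direction turned in E13.5 replicate 1, where outer minus middle was −3.52 percentage points, and in E12.0 replicate 1 it went from 9.54 points to 2.48. Region by region over all 302, the outer parts held more H3K27ac per base than the middle in 155 of the 216 regions touched in E12.0 replicate 1, 82 of 111 in replicate 2, 145 of 239 in E13.5 replicate 1 and 51 of 67 in replicate 2.

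Regions of 1000 to under 1500 bp had the reverse profile. Their middle part was covered over 42.1%, 19.9%, 50.4% and 8.97% of bases and their outer parts over 36.2%, 12.8%, 41.7% and 6.13%, in the same order of libraries. The middle held more than the outer parts in 59.9%, 62.3%, 63.6% and 55.2% of the regions touched. With only the stronger intervals (−log10 q of 2 or more) the very broad regions kept the direction in 3 libraries. In E12.0 replicate 2 the difference, outer minus middle, went from 2.06 to −0.37 percentage points. In the 2406 regions of 1500 to under 2000 bp it was 5.53 and 2.24 points in replicate 1 of the stages but −0.36 and −0.76 in replicate 2. Region by region, the outer parts held more in 59.2% and 59.5% of the regions touched at E12.0 (replicates 1 and 2) and in 52.1% and 56.8% at E13.5, so in replicate 2 the counts and the bases went opposite ways at that width.

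Outside the regions, H3K27ac covered 11.7% and 2.39% of the 1000 bp on either side at E12.0 compared with 10.01% and 2.23% at E13.5. Counted from the most upstream start in the 175 regions above, H3K27ac covered more of the 1000 bp upstream than of the 1000 bp downstream. All 4 libraries went this way (22.5% and 16.2%, 6.13% and 2.65%, 26.7% and 23.0%, 3.93% and 1.90%).

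**Figure D3:**
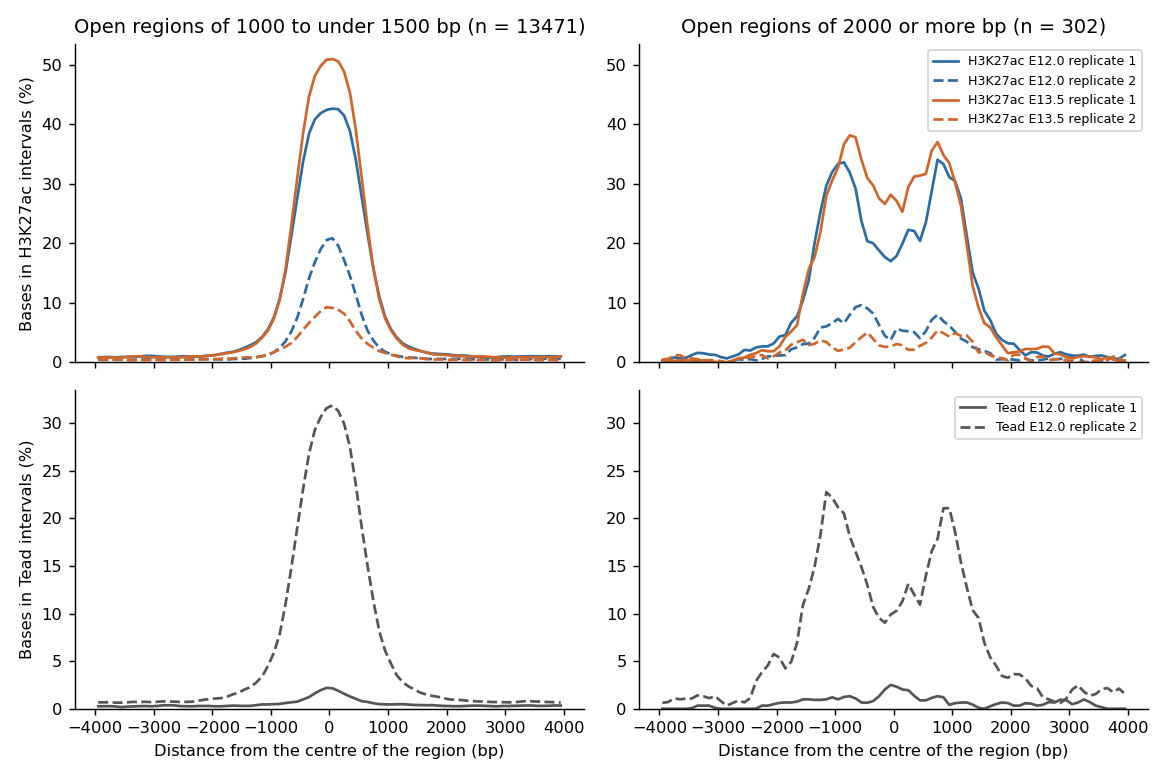
Share of bases (%) in H3K27ac intervals (top, 4 libraries) and Tead intervals (bottom, 2 libraries) in 100-bp steps from the centre of open regions of 1000 to under 1500 bp (left) and of 2000 bp or more (right). The narrower regions have 1 central peak, and the very broad ones have shoulders on both sides of a lower centre in H3K27ac replicate 1 of both stages and in Tead replicate 2. Tead replicate 1 went the other way in the very broad regions, with 2.22% within 200 bp of the centre and 1.09% at 600 to 1000 bp.

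Regions without H3K27ac had almost no Tead. Tead replicate 1 touched 19 regions (6.29%) and replicate 2 touched 157 (52.0%), and both touched 16 (5.30%, against 0.395% of all open regions). Of the 52 regions without H3K27ac in any library, Tead replicate 2 touched 0 and replicate 1 touched 1, a region inside Myo3a. Of the 203 regions with H3K27ac in 1 to 3 libraries it was 114 (56.2%) for replicate 2 and 15 (7.39%) for replicate 1, and of the 47 with H3K27ac in all 4 it was 43 (91.5%) and 3 (6.38%). The share thus rose from 1 to 3 to all 4 acetylated libraries in replicate 2 but not in replicate 1, which had few intervals. Open regions of 1000 to under 1500 bp had nearly the same shares in replicate 2 (2.12%, 57.1% and 95.0%), and in replicate 1 they had 0.441%, 4.0% and 12.1%. Both antibodies were profiled by CUT&RUN, and what the libraries share apart from the antibody was not tested.

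The 6 regions with the most bases covered in both Tead libraries were at Ddx3x, Mboat7 and Tsen34, Mepce and Zcwpw1, Atp8a2, Dnajc14 and Tmem198b, and Gsk3b. At Ddx3x, an X-linked RNA helicase (chrX:13279930-13282142), Tead covered 1134 bases in replicate 1 and 1224 in replicate 2. H3K27ac covered 1469 and 778 bases there at E12.0 compared with 1631 and 0 at E13.5.

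At Mboat7 and Tsen34 (chr7:3692391-3694511), an acyltransferase gene and a tRNA-splicing gene, Tead covered 1062 and 1076 bases, and all 4 H3K27ac libraries covered some (1465, 1096, 1364 and 200 bases). At Gsk3b, the kinase that marks beta-catenin for destruction (chr16:38087705-38090063), Tead covered 442 and 1242 bases and H3K27ac 1685, 1276, 1676 and 517. The region inside Atp8a2, a phospholipid flippase gene, was covered over 2039 bases by H3K27ac in E12.0 replicate 1, its whole width, and over 0 in replicate 2. It shows how far the replicates could part at one region.

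The regions without an H3K27ac interval in any library held genes with little RNA. They included the promoters of Fgfr3, Trhde, Dchs2, Adcy5, Jag2, Cebpb, Foxd1, Tbx18 and Gad2. The 52 were as wide (median 2148 bp) as the 47 acetylated in all 4 libraries (2145 bp), and 41 of them held a coding start. Their promoter windows were no less GC-rich (median 70.0%, against 64.3%), with a median CG ratio of 0.792 against 0.769. They were covered by ATAC over a median of 996 bases at E12.0 compared with 1904 at E13.5, against 1493 and 1976 in the acetylated ones.

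RNA levels per length are given as TPM, counts divided by effective length and scaled to a common total, as means of 2 libraries. The 41 measured start genes of the unacetylated regions had a median of 0.515 TPM at E12.0 compared with 0.520 at E13.5. The 193 genes with 1 to 3 acetylated libraries had 19.6 and 30.6, and the 47 with all 4 had 26.96 and 55.8. Median TPM was also higher at E13.5 over all 15982 tested genes (10.9 and 18.9), so no stage change is read from these medians. By edgeR the median log2 changes of the tested genes were −0.16, −0.28 and −0.11, in the same order of groups. In bulk samples, fewer cells expressing a gene and less RNA per cell cannot be told apart. Over all 281 measured start genes the medians were 16.1 and 28.3 TPM (quartiles 7.48 and 65.5 at E13.5), close to the 13.49 and 27 of genes that start in regions of 1000 to under 1500 bp.

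Single genes varied within the unacetylated class. Fgfr3, a receptor for fibroblast growth factors, had 3.39 and 2.29 TPM at E12.0 compared with 11.8 and 3.34 at E13.5, and its 2716-bp region was covered over 707, 1735 and 1427 bases at E12.0 compared with 2299, 2360 and 2155 at E13.5. Gad2, which makes the transmitter GABA in neurons, was at 0 and 0.284 TPM at E12.0 compared with 0.792 and 0 at E13.5. Its region was nevertheless covered over 1786, 1644 and 1922 of 2134 bases at E13.5. Cebpb, a leucine zipper transcription factor, had 3.69 and 2.78 TPM at E12.0 compared with 39.0 and 70.2 at E13.5 without an H3K27ac interval in any library.

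**Figure D4:**
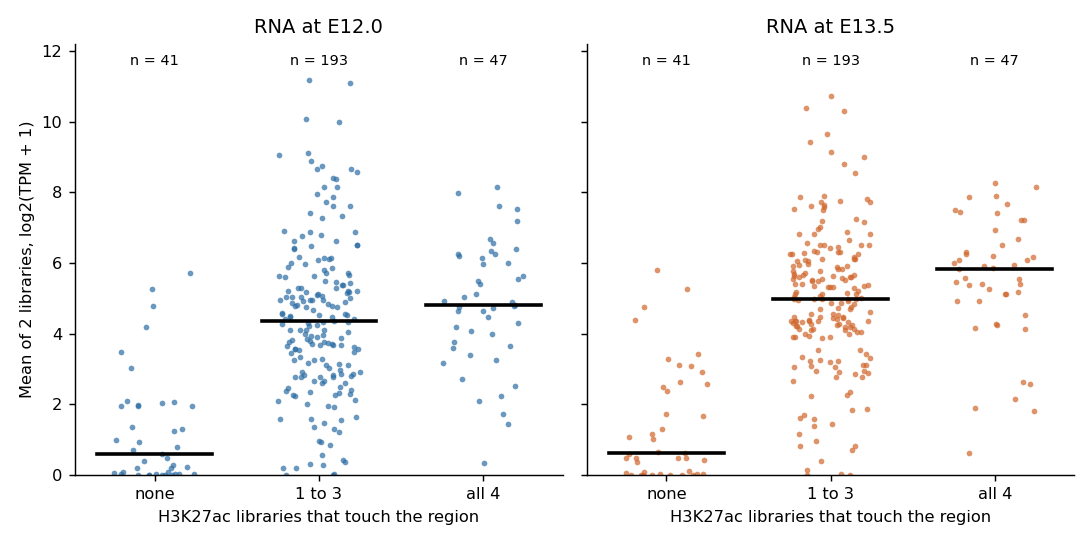
RNA of start genes, as log2(TPM + 1) of the mean of 2 libraries, at E12.0 (left) and E13.5 (right), by the number of H3K27ac libraries that touch the region. Each point is a gene and bars are medians. The 41 genes of regions without H3K27ac lie lowest at both stages, with medians of 0.515 and 0.520 TPM before the log.

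Between the stages, more of the start genes fell than rose with edgeR, and the reverse on another scale. Of 256 start genes with enough reads for edgeR's quasi-likelihood test, 44 (17.2%) were higher at E13.5 and 74 (28.9%) lower at an adjusted p under 0.05, and 138 were not called. Over all 15982 genes tested, 22.4% were higher and 23.5% lower, 45.9% in all. The median log2 fold change of the start genes was −0.24, and that of all genes 0.05. Genes that start in regions of 1000 to under 1500 bp had 22.4% higher and 21.4% lower.

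The split depended on the scale. With limma on log2(TPM + 1), 89 start genes (34.8%) were higher and 24 (9.38%) lower, against 41.3% and 12.5% of all genes. The share called lower was smaller among start genes than among all genes on that scale, opposite to edgeR, and the share called higher was smaller on both. The median over all genes moved to 0.76 and that over the start genes to 0.63, which was still the lower of both. Of the 118 genes called by edgeR, 65 were called in the same direction on that scale and 8 had the opposite sign. The smaller share called higher did not hold in every setting. With DESeq2, 18.6% of start genes were higher, against 18.7% of all genes, and 30.8% lower, against 21.3%. With edgeR without its filter on low counts, 19.9% were higher, against 15.2%, and 25.3% lower, against 14.7%. Directions below are from edgeR, on CPM, counts scaled to library size by the TMM method, and Afdn, Brwd3, Spred3 and Trim33, the 4 of the 8 that are described, are marked.

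Sdc1 had the most significant fall. Sdc1 encodes syndecan-1, a heparan sulfate proteoglycan of epithelial surfaces, and its region spans chr12:8770894-8773324 (2431 bp). Sdc1 had 1112 and 774 CPM at E12.0 compared with 24.7 and 26.2 at E13.5, a log2 change of −5.21 ± 0.31 (SE, n = 2 libraries a stage, adjusted p = 4.54e-06 by edgeR). Its chromatin did not narrow, with ATAC over 1369, 1696 and 1613 bases at E12.0 compared with 2186, 2305 and 2212 at E13.5, and H3K27ac over 1193 and 0 bases at E12.0 compared with 1209 and 0 at E13.5.

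Ddx3x, with Tead in both libraries, was among the most abundant start genes that fell. It had 2410 and 1668 CPM at E12.0 compared with 201 and 139 at E13.5, a log2 change of −3.59 ± 0.32 (SE, adjusted p = 2.62e-05 by edgeR). Gsk3b had 409 and 381 CPM at E12.0 compared with 101 and 75.8 at E13.5 (−2.16 ± 0.26, adjusted p = 0.000134 by edgeR). In TPM the stages overlapped at Gsk3b (64.6 and 87.3 against 71.0 and 47.9), so its fall rests on the scaling.

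The other largest falls were Tshz3 (−5.98), a zinc finger factor, Epas1 (−5.25), a hypoxia-inducible factor subunit, Uqcrh (−4.07), a subunit of respiratory complex III, Setd7 (−3.75), a lysine methyltransferase, Wfdc2 (−3.73), a secreted epithelial protein, Tfap4 (−3.41), Arl4c (−3.41), a small GTPase, and Prkce (−2.99), a protein kinase C. Tshz3 and Epas1 were near 0 throughout, with at most 64 counts in a library. On log2(TPM + 1), Epas1 and Prkce no longer passed, and Epas1 lost its call without E13.5 replicate 2 (adjusted p = 0.069, edgeR). The Tfap4 region was the widest at an established coding gene and its RNA was at 25.4 and 21.5 CPM at E12.0 compared with 2.14 and 2.25 at E13.5.

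Pfn1 had the most significant rise. It had 23.4 and 24.5 CPM at E12.0 compared with 180 and 220 at E13.5, a log2 change of 3.06 ± 0.27 (SE, adjusted p = 2.04e-05 by edgeR). Its region (chr11:70653489-70656333) was covered over 1559, 1296 and 1049 bases at E12.0 compared with 2550, 2162 and 2158 at E13.5, with H3K27ac over 505 and 0 bases at E12.0 compared with 1079 and 0 at E13.5. Only replicate 1 of each stage had H3K27ac there.

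The other largest rises were Tmem28 (4.60), Cebpb (3.19), Gse1 (3.09), a chromatin-associated coiled-coil protein, Gpr137c (3.0), Ndrg2 (2.94), a growth-restraining protein of the NDRG family, Lrrc41 (2.73), Sh3rf3 (2.70), Zfp777 (2.56) and Sema5b (2.51), a semaphorin. Tmem28 had 0 and 1 counts at E12.0 compared with 32 and 45 at E13.5, and lost its call without E12.0 replicate 1 (adjusted p = 0.137, edgeR), without E12.0 replicate 2 (0.0571) and without E13.5 replicate 2 (0.0923), and with DESeq2 (0.0538). Sh3rf3 lost its call without E12.0 replicate 1 (0.0969) and without E13.5 replicate 1 (0.160).

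**Figure D5:**
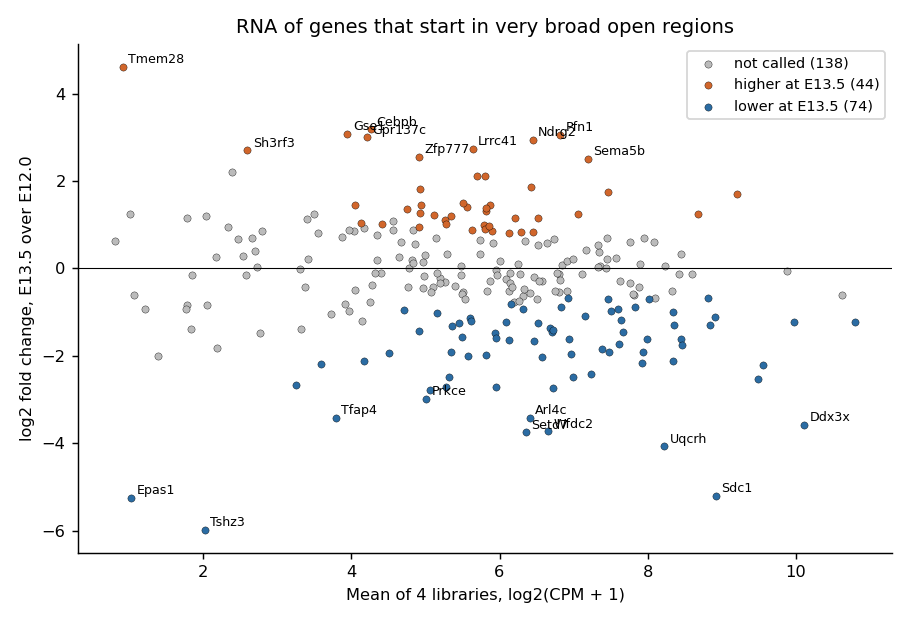
Log2 fold change of RNA (E13.5 over E12.0, edgeR) against the mean of 4 libraries as log2(CPM + 1), for the 256 tested start genes. The 44 called higher and 74 called lower are coloured and the 10 largest of each direction are named, from Tshz3 at −5.98 to Tmem28 at 4.60.

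Start genes that share a region did not always move together. Of the 24 regions with 2 tested start genes, 2 had both higher, 2 both lower, 10 had 1 gene called, 7 had none called and 3 had opposite calls. The opposite ones were Lrrc41 (higher) with Uqcrh (lower), Dnajc14 (higher) with Tmem198b (lower), and Rdh10 with Rpl7, which was named after its values were seen. The Lrrc41 and Uqcrh region was covered by ATAC over 1702, 1555 and 1561 bases at E12.0 compared with 2015, 1792 and 1720 at E13.5. In it Lrrc41 went from 9.49 and 16.01 CPM to 75.3 and 94.3, while Uqcrh went from 691 and 434 CPM to 30.4 and 36.5.

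The start genes can be grouped by what they encode. The 7 groups that follow cover 133 of the 290 genes and were drawn up after the names were seen, so their sizes and counts are a description. The counts called stand beside 17.2% higher and 28.9% lower among all tested start genes, and 22.4% and 23.5% among all genes, and with groups this small no difference from those shares is drawn. The 28 chromatin regulators and histone genes were all tested, with 3 higher (10.7%), 11 lower (39.3%) and a median log2 change of −0.56. Each lay in a region with H3K27ac in at least 1 library, and their median level was 29.2 TPM at E12.0 compared with 33.6 at E13.5.

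Among the chromatin genes, Dnmt3a rose from 81.2 and 80.2 CPM at E12.0 to 321 and 220 at E13.5 (log2 change 1.74, adjusted p = 0.000565 by edgeR). Chd7, the remodeller that is mutated in CHARGE syndrome with its ear malformations, rose from 223 and 263 CPM to 657 and 498 (1.25, adjusted p = 0.00304 by edgeR), and Arid4a also rose (1.41). Setd7, Msl1 (−1.92), Nsd2 (−1.76), Phf2 (−1.48) and Hmga1 (−1.25) were among the 11 that fell. H1f4 fell by 2.78, but histone RNA mostly lacks the poly(A) tail that was selected. Brwd3, another of the 11, changed sign on log2(TPM + 1), to 0.021. Chd4 (0.60, adjusted p = 0.063 by edgeR) and Kmt2c (0.03) were not called.

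Of 21 sequence-specific transcription factors, 19 were tested, with 3 higher (Cebpb, Mycl and Sp3) and 7 lower (Elf2, Epas1, Foxo3, Pou2f1, Tfap4, Tshz3 and Usf2). The developmental factors Foxd1 and Tbx18 had too few reads to test, and 6 of the 21 regions had no H3K27ac. Of 23 growth factor and kinase signalling genes, 20 were tested, with 1 higher, the activin receptor Acvr2b (1.45), and 7 lower. The 7 were Dyrk1a, Gnaq, Gsk3b, Igf1r (−1.61), Prkce, Spred2 and Spred3, of which Spred3 changed sign on log2(TPM + 1), to 0.014.

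The RNA-binding proteins were the most abundant group, with a median of 55.0 TPM at E12.0 compared with 79.4 at E13.5 over 17 genes. Their median log2 change by edgeR was −0.34. Of 16 tested, Ewsr1 (1.70) and Ints6 rose, and Cdk13, Cnot6l, Ddx3x, Syncrip and Tnrc6c fell. Of 11 ubiquitin ligases and deubiquitinases, Fbxl14 (1.45) rose and Fbxw7 (−1.14), Trim33, Trim71 (−1.59) and Trip12 fell. Trim33 changed sign on log2(TPM + 1), to 0.10. Of 17 cytoskeletal and adhesion genes, 8 rose (Afap1, Kif13a, Kif1a, Klc1, Pfn1, Sema4c, Sema5b and Svil) and 5 fell (Afdn, Enah, Phldb1, Sdc1 and Trio), with Afdn turning to 0.11 on log2(TPM + 1).

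Ion channels, transporters and synaptic proteins stood at the other end in level. Their 16 genes had medians of 0.281 TPM at E12.0 compared with 0.388 at E13.5, only 8 had enough reads to test, and none was called. Of their 16 regions, 9 had no H3K27ac in any library. The 16 included the potassium channel genes Kcnj3, Kcnc4 and Kcnk13, the GABA receptor gene Gabrb2, Rims2 and Gad2. Kcnj3, for example, was covered by ATAC over 608, 1292 and 812 of 2193 bases at E12.0 compared with 1754, 1983 and 1873 at E13.5, without H3K27ac in any library. Its RNA was at 0.342 TPM in E12.0 replicate 2 and at 0 in the other libraries.

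Gene lists for the tissue gave few members. None of 36 otic and prosensory transcription factors, 63 Hox and other homeobox patterning genes, 47 Hippo pathway and Yap/Tead target genes or 28 immediate early genes started in a very broad region, against 1.34% of all coding genes, a share that comes to under 1 gene in each of these lists. Of 61 genes of Notch, Wnt, BMP, FGF and Hedgehog signalling, 3 did (Fgfr3, Jag2 and Spry4), and none of the 3 was called. Jag2, a Notch ligand, had 2.06 and 3.79 TPM at E12.0 compared with 4.41 and 5.57 at E13.5, and Spry4, an FGF feedback inhibitor, had 1.30 and 2.22, then 8.44 and 6.11 (log2 change 1.24, adjusted p = 0.0517 by edgeR).

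Of 32 Zic, Fox and T-box genes, Foxd1 and Tbx18 started in a very broad region, and 1 region lay inside the span of Zic5. Of 36 chromatin regulators on the list, 4 did, among them Chd4, Chd7 and Dnmt3a, and another region lay inside Tet3. Mycl was the only one of 43 cell cycle genes, with RNA higher at E13.5 (0.80, adjusted p = 0.031 by edgeR). Hsp90ab1 and Srsf2 were those of 51 housekeeping genes, and neither was called (−0.60 and −0.12). Hsp90ab1 and Hmga1 have processed copies in the genome, and the sources used here do not say how reads were divided among them. None of the neuronal (13), glial (7), endothelial (7), erythroid and immune (10) or melanocyte (6) markers started in a very broad region, and of 11 mesenchymal markers only Tbx18 did.

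Some of the regions without a coding gene lay beside microRNA genes. The region chr14:115040223-115042589 (2367 bp) ended 1082 bp before the Mir17 hairpin, the first of the cluster of Mir17, Mir18, Mir19a, Mir20a, Mir19b-1 and Mir92-1, known for promoting growth of progenitors. ATAC covered 1415, 1599 and 1449 of its bases at E12.0 compared with 2041, 2279 and 2284 at E13.5, and H3K27ac covered 230 and 0 bases at E12.0 compared with 317 and 0 at E13.5. RNA of the host gene Mir17hg was at 33.4 and 40.7 CPM at E12.0 compared with 99.4 and 33.9 at E13.5, where E13.5 replicate 1 stood above the other 3 libraries (log2 change 0.84, adjusted p = 0.135 by edgeR).

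Another region, chr14:61680830-61683127, held the start of Dleu2, the non-coding host of Mir15a and Mir16-1, whose RNA was not called (−0.34, adjusted p = 0.671 by edgeR). The region at Ift80 and Smc4 (chr3:69004222-69006305) lay 3467 bp from Mir15b, of the same microRNA family. Smc4, a condensin subunit, fell by 1.96 (adjusted p = 0.000163 by edgeR), with H3K27ac in 3 of 4 libraries (732, 359 and 709 bases, and 0 in E13.5 replicate 2). The region chr15:85670009-85672148, lay 34455 bp from Mirlet7c-2, with no H3K27ac in any library. Mature microRNAs were not measured here.

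The RNA libraries held 9412287 to 19570863 estimated reads. Sox2 and Cdkn1b, the genes behind the sorting reporters, did not start in a very broad region. Sox2 had 36.9 and 39.4 CPM at E12.0 compared with 152 and 169 at E13.5, and Cdkn1b 7.70 and 8.59, then 229 and 182. The summed TPM of 10 progenitor and epithelial markers was 1353 and 1695 at E12.0 compared with 4123 and 4342 at E13.5, and that of 11 mesenchymal markers 831 and 925, then 583 and 705. Lum and Dcn made up nearly all of the mesenchymal sum and went opposite ways in TPM (Lum 713 and 794, then 415 and 517, Dcn 102 and 103, then 155 and 174). Postn had 14.0 and 23.9 TPM, then 3.62 and 11.2. Col1a2, Col3a1 and Pdgfra reached at most 1.74, 3.69 and 2.80 TPM. Col1a1, Prrx1, Twist1, Pou3f4 and Tbx18 were each under 1 TPM in every library. The 13 neuronal markers summed to 20.4 and 32.4 TPM, then 33.0 and 26.8. Single markers in that sum went different ways. Neurod1 had 3.35 and 7.38 TPM, then 0 and 0.036, and Tubb3 2.65 and 4.26, then 13.3 and 11.8. Of the 7 neuronal markers tested by edgeR, 2 were called lower (Neurod1 and Dcx) and 0 higher. The 7 glial and neural crest markers summed to 364 and 538, then 359 and 362. Erbb3 made up most of that sum at E12.0, and Erbb3 and Sox10 together most of it at E13.5. These went opposite ways (Erbb3 321 and 477, then 166 and 170, Sox10 21.3 and 28.2, then 160 and 173). Melanocyte markers summed to 1.08 and 1.02 TPM, then 3.90 and 29.3, and 7 endothelial markers to at most 1.78. What these marker differences add to the results above was not tested.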

How the data were processed

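ATAC-seq, H3K27ac and Tead CUT&RUN and RNA-seq libraries of sorted mouse cochlear progenitors were used as deposited. Reads were aligned to GRCm38 (mm10), and the processing tools named are STAR, UMI-tools and MACS2, per the submitters' processing notes, which give no versions here. The peak files are narrowPeak lists per library in which the authors give each peak's fold enrichment and its −log10 p-value and −log10 q-value. The RNA files hold the authors' expected counts per gene with an effective length. The sources used here name neither the counting tool nor whether it used strand, so genes that overlap on opposite strands cannot be told apart.

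Intervals on chromosomes 1 to 19 and X of the 6 ATAC lists were merged at 1 bp of overlap, and regions of 2000 bp or more kept. The bases covered by each library's merged intervals were counted in each region, in 3 equal parts of it, in 1000 bp on either side and around gene starts. Counts around starts used 1 start a region, the most upstream. A gene was tied to a region as a start gene when its start in RefSeq's promoter table lay inside, or, for genes not in that table, either end of its span, since the gene table used gives no strand. Expected counts were rounded and tested with edgeR 4.0.16 (quasi-likelihood, TMM, filterByExpr, two-sided, Benjamini-Hochberg over 15982 genes, threshold 0.05) in R 4.3.3. Dividing each expected count by its effective length and scaling to a common total gave TPM. Alternatives used DESeq2 1.42.0, limma 3.58.1 on log2(TPM + 1), no filter, a replicate block, and each replicate left out. The RNA test was tested on simulated data with known fold changes, and the interval functions on made-up intervals.

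Gene symbols matched 48349 of 48709 gene IDs. The regions and gene lists were chosen with earlier results of these data known. Regions and genes named are the 12 widest, those beside the 2000 bp threshold, list genes that start in or span a region, the 10 largest rises and falls among start genes, the 6 regions with most Tead, regions missing from a library, and the widest without H3K27ac. Others were named after their values were seen, including the groups by gene function. A few genes of the lists are not reported here.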

Additional observations from a re-analysis of the deposited data

How the results depend on the processing

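The number of very broad regions was 2708 at 1500 bp or more, 4 at 3000 bp or more, 31 from the E12.0 libraries alone, 225 from the E13.5 libraries alone and 136 where a single interval had to reach 2000 bp, and 220 to 285 with 1 ATAC library left out. Regions touched by both H3K27ac libraries numbered 2 at E12.0 and 1 at E13.5 when 50% of the bases had to be covered, 33 and 27 with a −log10 q of 2 or more, and 111 to 216 and 67 to 239 when 1 of the libraries was left out. Regions touched by both Tead libraries numbered 8 with a −log10 q of 2 or more, and 19 to 157 with 1 library left out.

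With limma on log2(TPM + 1), 89 start genes were higher and 24 lower (41.3% and 12.5% of all genes). Leaving out 1 RNA library gave 30 to 38 higher and 66 to 70 lower (13.2% to 16.5% and 16.4% to 19.8% of all genes), and 94 to 97 of the 118 called genes kept their call and direction. On log2(TPM + 1) the sign turned for Afdn (0.11), Brwd3 (0.021), Spred3 (0.014) and Trim33 (0.10). The outer minus middle difference in H3K27ac turned to −0.37 points in E12.0 replicate 2 with the stronger intervals, to −0.36 and −0.76 in replicate 2 of E12.0 and E13.5 in regions of 1500 to under 2000 bp, and to −3.52 in E13.5 replicate 1 in the very broad regions without a coding start. The causes were not tested.

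Replicate numbers did not pair the RNA libraries (correlation of deviations −0.005). A replicate block gave 45 start genes higher and 73 lower. DESeq2 gave 49 higher and 81 lower, and edgeR without its filter on low counts 55 and 70. Depth limits the genes near 0, and the peak lists keep no read counts, so regions missed at the calling threshold cannot be told from closed ones.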
